A study of Mus musculus with 12 samples.

Results

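A set of 10 circadian clock genes was read in whole mouse kidneys: Arntl (also named Bmal1), Clock, Npas2, Per1, Per2, Per3, Cry1, Nr1d1, Dbp and Ciart. They were chosen by name and found by their NCBI Gene number among the 27179 genes of the expression table. All 10 passed the filter on low values, which asked that 3 or more libraries reach 1 TPM (the unit of transcript level used here, corrected for gene length and scaled to the same total in each library), as did 14972 genes in all. The study compared mice with a deletion of Fan1, a nuclease that repairs DNA crosslinks, with wild-type mice after repeated low doses of cisplatin, a DNA crosslinking drug. There were 12 libraries, 1 per kidney sample, with 3 in each of 4 groups: both genotypes, wild-type and FAN1KO, under saline and under cisplatin. The mice were 8 to 12 weeks old, which the study's methods give as the age at injection. Those methods name both sexes. The strain background is mixed by the labels, while the methods describe repeated backcrossing to 1 inbred strain. Cisplatin was given at 2 mg/kg once a week for 5 weeks by intraperitoneal injection, and control mice received saline. In FAN1KO mice a Ggt1-Cre transgene deletes Fan1 in proximal tubule cells, so other kidney cells keep the gene. The labels give no hour or day of collection, and no library is tied to a light cycle. For repeated low-dose cisplatin the study's supplement places kidney collection 5 weeks after the first injection. Numbers in the sample descriptions run from 881 to 1027, but their meaning is not stated.

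The mammalian clock is a feedback loop of transcription that runs in nearly every cell, the cells of the kidney tubule among them. ARNTL pairs with CLOCK, or with its relative NPAS2, and switches on the Per and Cry genes, whose proteins return to the nucleus and block that pair. A side loop through the receptor NR1D1 (REV-ERB alpha) represses Arntl and Npas2, so the activators peak in the part of the day when Dbp, Per3 and Ciart are low. A kidney collected at another hour of the animal's day can hold another mix of these RNAs.

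The promoters of the members were searched for motifs that clock proteins bind, and the 4 that hold an E-box or a D-box are shown. RefSeq starts of the GRCm38.p6 build were matched for 9 of the 10 members; Per2 had no entry. Windows of 300 bases, 250 before the start and 50 after it, were searched on both strands for the E-box CACGTG that ARNTL and its partner bind, the ROR motif AGGTCA, read by the ROR and REV-ERB receptors, and the D-box ttatgtaa or ttacgtaa that DBP binds. The 9 members had 13 windows in all, since Clock has 3 starts and Arntl and Per1 have 2 each. Among all 27025 genes with a promoter in the table, 8.09% held the E-box in at least 1 window, 18.1% the ROR motif and 1.23% the D-box. An E-box was present in 3 members, at 116, 58 and 44 bases before the start of Ciart, 60 before that of Cry1 and 166 before that of Per1. The ROR motif was found in 3 members, at 137 bases before a start in Per1, 119 before a start in Clock and at base 32 counted from a start in Arntl. Positions in these 3 genes refer to 1 of their starts, and their other windows held no match. The D-box was present in Per3 alone among the 9, at 205 and 158 bases before the start. No match overlapped another. The 250 bases before the start are given 5′ to 3′ on the gene's own strand, with matches in capitals: Ciart at chr3:95882229-95882478 (minus strand), Per3 at chr4:151044666-151044915 (minus), Cry1 at chr10:85185055-85185304 (minus) and Per1 at chr11:69098699-69098948 (plus).
Ciart: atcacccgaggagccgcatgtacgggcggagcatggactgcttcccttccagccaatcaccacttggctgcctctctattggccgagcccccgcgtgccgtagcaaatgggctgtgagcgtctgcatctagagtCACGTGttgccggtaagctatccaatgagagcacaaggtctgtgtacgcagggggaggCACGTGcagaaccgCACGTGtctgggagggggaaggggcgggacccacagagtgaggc
Per3: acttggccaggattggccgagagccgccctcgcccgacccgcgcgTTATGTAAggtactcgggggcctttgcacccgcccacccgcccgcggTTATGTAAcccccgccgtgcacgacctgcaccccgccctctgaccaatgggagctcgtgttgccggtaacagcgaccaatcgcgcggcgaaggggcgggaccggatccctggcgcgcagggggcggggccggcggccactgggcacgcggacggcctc
Cry1: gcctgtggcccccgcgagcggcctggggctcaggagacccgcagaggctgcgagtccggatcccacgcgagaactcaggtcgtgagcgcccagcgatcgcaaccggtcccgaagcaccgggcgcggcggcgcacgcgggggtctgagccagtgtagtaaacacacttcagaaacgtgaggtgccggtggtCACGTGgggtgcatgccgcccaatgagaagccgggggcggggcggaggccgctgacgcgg
Per1: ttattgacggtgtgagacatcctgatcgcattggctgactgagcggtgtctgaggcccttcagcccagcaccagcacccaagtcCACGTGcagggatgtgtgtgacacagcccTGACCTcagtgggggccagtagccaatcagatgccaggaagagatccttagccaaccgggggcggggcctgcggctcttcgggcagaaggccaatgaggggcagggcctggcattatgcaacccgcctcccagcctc
A match describes these letters in these windows and is not a measurement of binding.

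The level of the members spanned from Nr1d1 (median of the 12 libraries 76.7 TPM, range 47.2 to 104) and Dbp (50.1 TPM, 9.42 to 73.7) down to Cry1 (2.09 TPM, 1.198 to 3.94). Between them came Per1 (median 16.1 TPM), Clock (8.80), Arntl (6.93), Per3 (6.28), Per2 (5.07), Ciart (4.98) and Npas2 (4.04). Neighbours in this order overlapped in their ranges over libraries throughout. The reads behind a member, recovered from the steps of the TPM values, numbered 72 for Ciart in its shallowest library to 8538 for Nr1d1 in its deepest. The libraries held 30581777 to 68454378 recovered reads over the 22532 genes for which reads could be recovered. The number of reads bears on counting error only.

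**Figure D1:**
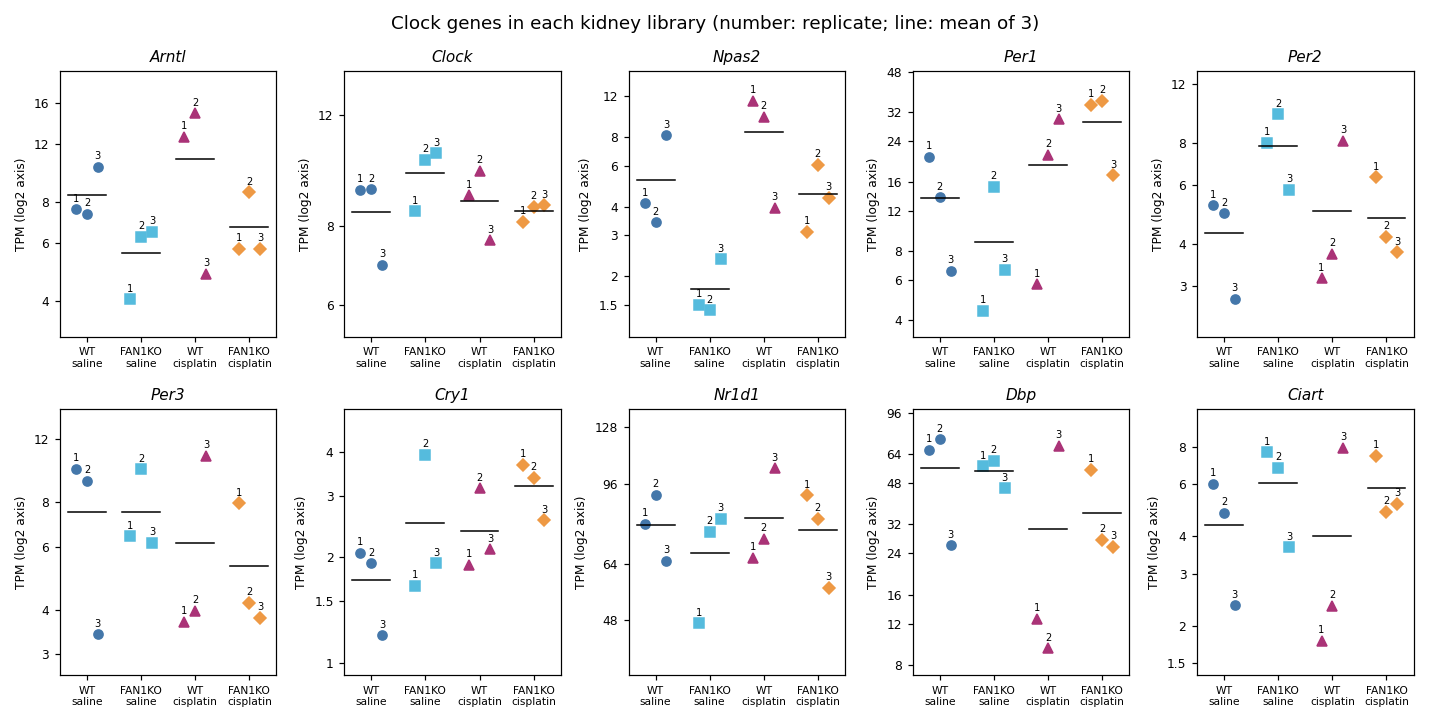
Each panel plots 1 clock gene, with the TPM of each of the 12 kidney libraries on a log2 axis, the 4 groups along the x axis, the replicate number beside each point and the mean of 3 as a line (WT, wild-type). Dbp, Per3, Per2 and Ciart are low in wild-type saline 3 and wild-type cisplatin 1 and 2, the libraries in which Npas2 is at 8.12 to 11.4 TPM.

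The activators differed between mice of a group. Arntl, the partner without which the loop stops, was at 7.61, 7.36 and 10.3 TPM in wild-type and 4.04, 6.26 and 6.49 in FAN1KO kidneys under saline, and 12.6, 14.9 and 4.84 in wild-type and 5.77, 8.58 and 5.77 in FAN1KO kidneys under cisplatin. The highest of its 12 values and the lowest but 1 thus fell in the same group, wild-type cisplatin, where replicates 1 and 2 were high and replicate 3 was low. Npas2, which can stand in for CLOCK, was at 4.14, 3.42 and 8.12 TPM (wild-type) and 1.51, 1.42 and 2.36 (FAN1KO) under saline, and 11.4, 9.76 and 3.94 (wild-type) and 3.11, 6.05 and 4.36 (FAN1KO) under cisplatin. Its 3 highest libraries were wild-type saline 3 and wild-type cisplatin 1 and 2, the 3 highest for Arntl too, and its 3 lowest were the FAN1KO saline libraries. Clock, the usual partner of ARNTL, was at 9.13, 9.16 and 6.95 TPM (wild-type) and 8.45, 10.2 and 10.4 (FAN1KO) under saline, and 8.96, 9.79 and 7.60 (wild-type) and 8.14, 8.60 and 8.64 (FAN1KO) under cisplatin. All 4 groups overlapped for Clock, and its highest library was less far above its lowest than for any other member, where that fold was 3.69 for Arntl and 8.04 for Npas2.

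Per2 and Per3, repressors of the core loop, were low in the wild-type libraries in which Arntl and Npas2 were high. Per3, the Per gene that the rhythm depends on least, was at 9.89, 9.16 and 3.41 TPM in wild-type and 6.41, 9.87 and 6.15 in FAN1KO kidneys under saline, and 3.70, 3.97 and 10.8 in wild-type and 7.93, 4.18 and 3.80 in FAN1KO kidneys under cisplatin. Per2, a repressor needed for a stable rhythm in mice, was at 5.22, 4.93 and 2.75 TPM (wild-type) and 8.01, 9.74 and 5.79 (FAN1KO) under saline, and 3.16, 3.73 and 8.13 (wild-type) and 6.32, 4.21 and 3.77 (FAN1KO) under cisplatin. Within wild-type mice both genes were low in saline replicate 3 and in cisplatin replicates 1 and 2, and high in cisplatin replicate 3. Per1, a repressor that also answers to glucocorticoid hormone and to other acute signals, was at 20.5, 13.7 and 6.56 TPM (wild-type) and 4.41, 15.3 and 6.64 (FAN1KO) under saline, and 5.74, 20.9 and 29.9 (wild-type) and 34.5, 36.0 and 17.0 (FAN1KO) under cisplatin. It did not follow Per2 and Per3 throughout, since wild-type cisplatin replicate 2 was low in those genes and not in Per1. Cry1, the partner of the PER proteins, was at 2.06, 1.92 and 1.198 TPM (wild-type) and 1.66, 3.94 and 1.92 (FAN1KO) under saline, and 1.90, 3.15 and 2.11 (wild-type) and 3.68, 3.38 and 2.56 (FAN1KO) under cisplatin. Its groups overlapped in each of the comparisons made.

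Of the side loop and output genes, Dbp had the widest spread within a group. Dbp, a transcription factor that passes the rhythm on to metabolic and transport genes, was at 66.5, 73.7 and 26.0 TPM in wild-type and 56.6, 59.7 and 45.6 in FAN1KO kidneys under saline, and 12.6, 9.42 and 69.4 in wild-type and 54.5, 27.5 and 25.6 in FAN1KO kidneys under cisplatin. Within wild-type cisplatin alone it covered 9.42 to 69.4 TPM, a mean of 30.5 ± 33.7 (SD, n = 3), so the SD exceeded the mean. Ciart, a repressor of the ARNTL pair also called Chrono, was at 6.01, 4.79 and 2.35 TPM (wild-type) and 7.66, 6.78 and 3.67 (FAN1KO) under saline, and 1.78, 2.34 and 7.92 (wild-type) and 7.44, 4.82 and 5.14 (FAN1KO) under cisplatin. Its 3 lowest libraries were those with the 3 highest values of Npas2. Nr1d1, the receptor that represses Arntl, was at 78.4, 90.6 and 64.9 TPM (wild-type) and 47.2, 75.1 and 80.3 (FAN1KO) under saline, and 65.96, 72.5 and 104 (wild-type) and 90.4, 80.3 and 56.6 (FAN1KO) under cisplatin. Its groups overlapped in every comparison, and its highest library was 2.20 times its lowest.

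The spread of log2(TPM + 1) within groups was set beside that of all genes tested. The within-group SD was 0.90 for Dbp, above 97.5% of the 14972 genes, and 0.85 for Per1, above 96.6%. Ciart (0.60), Per3 (0.60), Npas2 (0.51), Arntl (0.46), Per2 (0.43), Nr1d1 (0.34) and Cry1 (0.32) also lay above the median of all genes (0.25), and only Clock (0.15) lay below it. The median over the 10 members was 0.48. As a description, then, 9 of 10 members varied between mice of the same group more than the middle gene tested did. Among 18 other clock genes tested, 13 did so. Per1, Nr1d1 and Cry1 were lowest of their group in the library with high Y-linked genes, described below, in all 4 groups. No other member was. The deviations of Per1 in those libraries were −0.67 to −1.30. What part of the spread goes with the Y-linked genes was not tested.

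**Figure D2:**
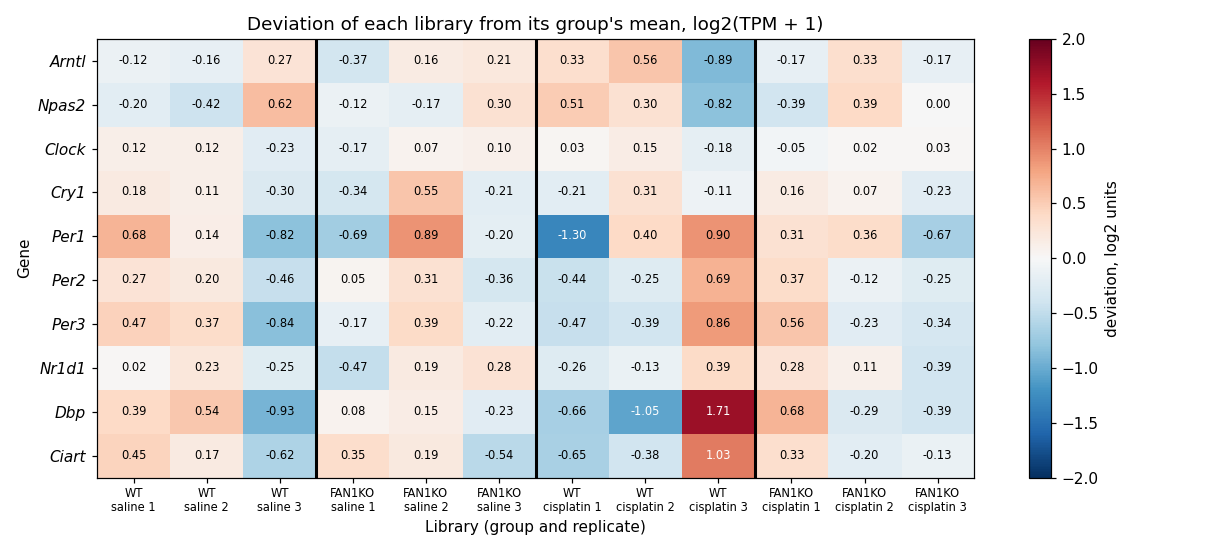
The map gives, for each clock gene (rows) and library (columns, black lines between groups; WT, wild-type), the difference in log2(TPM + 1) from the mean of that library's own group, red above and blue below. Wild-type cisplatin 3 is at 1.71 for Dbp and −0.89 for Arntl, and wild-type saline 3 shows the opposite signs.

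The libraries were next compared 1 by 1 with the difference in log2(TPM + 1) between Arntl and Dbp, genes that peak in opposite parts of the day in mouse peripheral tissue. This difference was −2.97, −3.16 and −1.26 in wild-type and −3.52, −3.06 and −2.64 in FAN1KO kidneys under saline, and 0.0034, 0.61 and −3.59 in wild-type and −3.04, −1.57 and −1.97 in FAN1KO kidneys under cisplatin. Group means were −2.46 ± 1.05, −3.07 ± 0.44, −0.99 ± 2.27 and −2.19 ± 0.76 (SD, n = 3 each) in the same order. Wild-type cisplatin alone covered 4.20 units, the whole range of the 12 libraries, and held both extremes. Wild-type cisplatin 3 lay nearer to FAN1KO saline 1 than to either of the other libraries of its own group.

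The same libraries stood apart with other genes. Npas2 minus Per3 was positive in wild-type saline 3 (1.05), wild-type cisplatin 1 (1.40) and 2 (1.12) and FAN1KO cisplatin 2 (0.45) and 3 (0.16), and negative in the other 7, down to −2.17 in FAN1KO saline 2. Arntl minus Nr1d1 ranged from −4.17 in wild-type cisplatin 3 to −2.21 in wild-type cisplatin 2, again both in 1 group, and the FAN1KO saline libraries lay within 0.18 of each other. By all 3 differences wild-type saline 3 and wild-type cisplatin 1 and 2 had the most activator RNA for their output RNA. Every treated or control group except FAN1KO saline thus held libraries on both sides of zero for Npas2 minus Per3. Whether collection time differed between the libraries was not tested, since no label gives it, and a difference in collection time cannot be told apart here from a difference in the clock itself. Wild-type saline 3 and wild-type cisplatin 1 also had high Y-linked genes, described below, and wild-type cisplatin 2 did not. FAN1KO saline 1 and FAN1KO cisplatin 3 had them high too and did not stand apart in this way. What part sex or cell makeup had in the pattern was not tested.

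**Figure D3:**
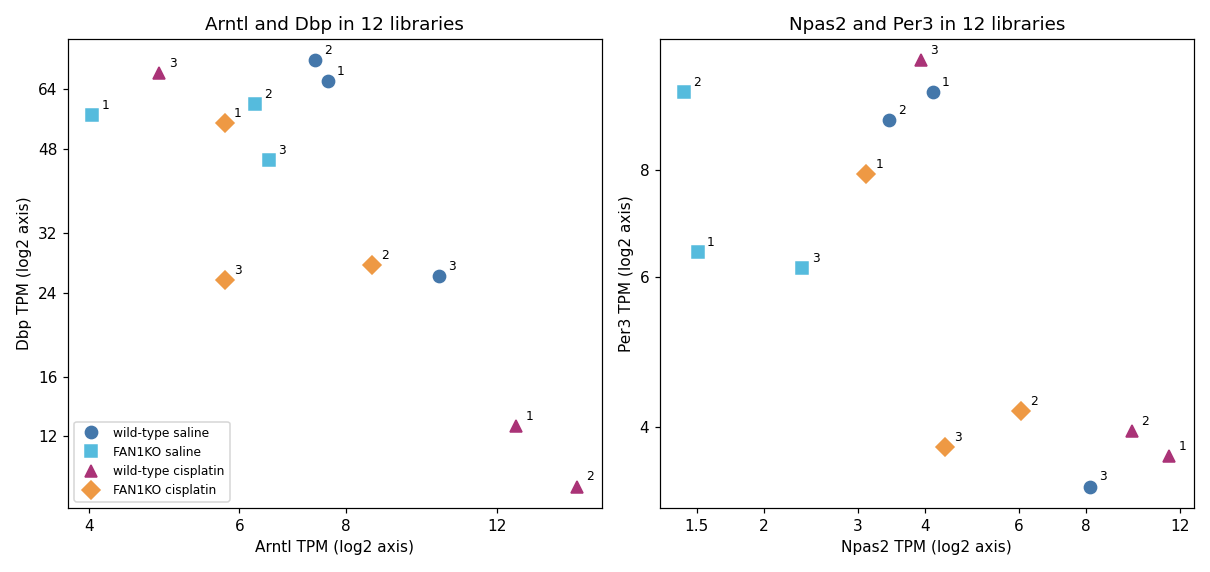
Both panels plot the TPM of 12 kidney libraries on log2 axes, Arntl against Dbp and Npas2 against Per3, with a symbol for each group and the replicate number beside it. Wild-type cisplatin 1 and 2 lie at the lower right and wild-type cisplatin 3 at the upper left of the Arntl and Dbp panel.

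How the members moved together was measured on the deviations from the group means, over 12 libraries, for the 45 pairs of members, with exact permutation of libraries within groups (1296 orders, smallest p 0.0007716) and adjustment over the 45 pairs. Per2 and Per3 rose and fell together (Pearson's r = 0.96, Spearman's rho = 0.95, exact permutation p = 0.0007716 and adjusted p = 0.0347 for each). Their r was 0.94 without the 2 libraries farthest from the median of Per2. This was the 1 pair that passed the adjustment. A further 19 pairs had an unadjusted exact permutation p under 0.05 for r, so 20 in all, 13 with r above 0 and 7 below, and all 20 kept their sign without the 2 farthest libraries.

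The 7 negative pairs each joined Arntl or Npas2 to a gene of the other arm. Npas2 and Ciart had r = −0.94 and rho = −0.86 (exact permutation p = 0.00617 and 0.00772, adjusted 0.0537 and 0.0579), with r = −0.89 without the 2 farthest libraries. For Arntl and Dbp r was −0.87 and rho −0.78 (exact permutation p = 0.0208 and 0.0270, adjusted 0.0669 and 0.0868), and r was −0.65 without the 2 farthest libraries. Arntl and Npas2 went the same way (r = 0.86, rho = 0.79, exact permutation p = 0.0177 and 0.0116, adjusted 0.0614 and 0.0651), with r = 0.80 without the 2 farthest libraries. Clock took part in none of the 20. In the 8 libraries with low Y-linked genes, described below, each group holds 2 mice whose deviations mirror each other, and pairs that were weak over 12 libraries were strong there (Arntl and Clock r = 0.99, against 0.47 over 12), so r over those libraries is not read as a check. These libraries are the same as those in which the differences above were read, so the pairs describe that pattern again and do not add to it.

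Genes outside the members with the most similar pattern were sought over log2(TPM + 1) in all 12 libraries, group differences included, as a description. For Arntl the 5 highest r outside the members were those of 1700029N11Rik (0.84), Nfil3 (0.80), Prr5 (0.80), Igkv12-44 (0.78) and Lipt1 (0.77). Among all 14972 genes no gene but Arntl itself was above Npas2 (0.85). The 3 lowest outside the members were Pgm1 (−0.88), Cgrrf1 (−0.86) and Nr1d2 (−0.84), and Ciart (−0.89) was the lowest of the 14972 genes tested. For Dbp the 5 highest were Nr1d2 (0.90), Spata17 (0.80), Alas1 (0.80), Enox2 (0.75) and Rmnd5a (0.74). The 3 lowest were Pllp (−0.80), Mettl16 (−0.80) and Slc16a1 (−0.78), and Npas2 (−0.81) was below them all. Nfil3, a repressor at D-boxes, and Nr1d2, the twin of Nr1d1, are clock genes themselves, and Alas1, the first enzyme of heme synthesis, is known to be rhythmic in liver.

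Nr1d2 was at 32.2, 31.1 and 19.1 TPM in wild-type and 30.5, 34.2 and 27.6 in FAN1KO kidneys under saline, and 19.97, 18.7 and 31.7 in wild-type and 33.5, 23.96 and 27.6 in FAN1KO kidneys under cisplatin. Nfil3 was at 9.26, 8.92 and 14.1 TPM (wild-type) and 3.23, 9.35 and 6.14 (FAN1KO) under saline, and 15.7, 19.7 and 11.2 (wild-type) and 9.60, 17.0 and 9.11 (FAN1KO) under cisplatin. Wild-type saline 3 and wild-type cisplatin 1 and 2 were the 3 lowest for Nr1d2, and those libraries and FAN1KO cisplatin 2 were the 4 highest for Nfil3. Tef, a relative of Dbp, ranged from 47.9 TPM in wild-type cisplatin 2 to 130.0 in wild-type cisplatin 3, and Cry2, the other cryptochrome, from 5.07 in wild-type cisplatin 1 to 13.7 in FAN1KO cisplatin 1.

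The 4 comparisons of groups and their interaction were then tested by limma on log2(TPM + 1), with adjusted p-values over all 14972 genes. Facts of the whole series bear on them. Fan1 itself was at 1.98 to 3.80 TPM in wild-type and 1.17 to 2.28 in FAN1KO kidneys under saline, and at 2.33 to 3.57 and 1.55 to 3.51 under cisplatin. The genotypes overlapped, so the labels could not be checked by this RNA of the whole kidney. Kdm5d, Uty, Ddx3y and Eif2s3y, which lie on the Y chromosome, averaged 3.46 to 3.93 on the log2(TPM + 1) scale in 4 libraries, 1 from each group: replicate 3 of wild-type saline and of FAN1KO cisplatin, and replicate 1 of FAN1KO saline and of wild-type cisplatin. Elsewhere that average was 0.10 or less, which is what is meant by the 8 libraries with low Y-linked genes. The study used male and female mice, so by these genes the 4 libraries are read as male kidneys and the 8 as female. Of the 3 libraries with the highest Arntl, wild-type cisplatin 2 was among these 8 and the other two were not. Markers of the proximal tubule (6 genes, TPM summed) were at 3764 to 3936 and 3531 to 5075 under saline in wild-type and FAN1KO kidneys, and at 3069 to 4197 and 1234 to 2282 under cisplatin. The 3 injured tubule markers summed to 711 to 1071 TPM in FAN1KO kidneys under cisplatin and to at most 110 in any other library, and the 5 leukocyte markers to 20.3 to 60.2 and at most 20.5. Summed erythroid markers (3 genes found of 4 listed) were at 5.54 to 72.4 TPM in FAN1KO kidneys under cisplatin and at 532 or more elsewhere. Between genotypes under cisplatin limma called 4 of the 6 proximal tubule and 3 of the 3 erythroid markers lower, and 3 of the 3 injured tubule and 1 of the 5 leukocyte markers higher; 1 of 2 distal convoluted tubule markers was lower and 1 of 2 collecting duct markers higher. No marker was at 0 throughout a group. In whole kidneys fewer cells of a type and less RNA per cell cannot be told apart, and the part of these shifts in the results below was not tested.

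None of the 10 members was called between FAN1KO and wild-type kidneys under cisplatin by limma (0 called, and 0 at an unadjusted p under 0.05; lowest adjusted p 0.202), where 23.9% of all genes tested were called. No member had 3 FAN1KO values clear of the 3 wild-type values, against 44.3% of genes tested. The members' median log2 difference was −0.019 and that of all genes 0.24. The largest differences were those of Per1 (0.79, SE 0.61, adjusted p = 0.368) and Npas2 (−0.70, SE 0.38, adjusted p = 0.202). This count was not stable. With the Y-linked genes described above as a covariate and all 12 libraries kept, limma called Per1 (0.83, SE 0.29, adjusted p = 0.0392). Over all 14972 genes that fit called 6035 higher and 1288 lower, against 2931 and 654 without the covariate. So 1 of 10 members was called where calls over all genes rose as well. Without wild-type cisplatin replicate 3, which leaves 2 mice in that group, Arntl (−0.96, SE 0.24, adjusted p = 0.0259), Npas2 (−1.10, SE 0.33, adjusted p = 0.0452) and Dbp (1.55, SE 0.44, adjusted p = 0.0380) were called by limma, where 19.3% of all genes were. Leaving out any other of the 6 libraries compared gave 0 called members. With median-ratio scaling, described below, calls over all genes moved from 2931 higher and 654 lower to 1300 higher and 1154 lower, and 0 members were called.

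Under saline the same genotypes again gave 0 called members (2 at an unadjusted p under 0.05), beside 0.768% of all genes. Npas2 was at 1.42 to 2.36 TPM in FAN1KO and 3.42 to 8.12 in wild-type kidneys, a log2 difference of −1.11 (SE 0.38, adjusted p = 0.356). Per2 was at 5.79 to 9.74 against 2.75 to 5.22 TPM, a difference of 0.75 (SE 0.33, adjusted p = 0.560). Arntl was the third member whose values did not overlap, with 4.04 to 6.49 in FAN1KO and 7.36 to 10.3 TPM in wild-type kidneys (−0.52, SE 0.34, adjusted p = 0.849). Each of these 3 had an exact permutation p of 0.1, the smallest that 3 mice against 3 allow, and 12.5% of all genes tested did not overlap either. The members' median log2 difference was 0.083 and that of all genes −0.037.

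Cisplatin against saline in FAN1KO kidneys gave the 1 call among the members. Per1 rose from 4.41, 15.3 and 6.64 TPM under saline to 34.5, 36.0 and 17.0 under cisplatin, means of 8.77 ± 5.73 and 29.2 ± 10.52 (SD, n = 3 each). Its log2 difference by limma was 1.71 (SE 0.61, adjusted p = 0.0457), and it stayed 1.34 above the median gene. All 3 cisplatin values lay above all 3 saline values (exact permutation p = 0.1, the smallest possible). Npas2 was also clear of overlap, at 3.11 to 6.05 against 1.42 to 2.36 TPM, with a difference of 0.98 (SE 0.38, adjusted p = 0.0617). So 1 of 10 members was called and 2 did not overlap, where 39.8% and 54.9% of all genes did so.

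The call of Per1 was close to the threshold. Its adjusted p rose to 0.155 without FAN1KO saline replicate 1, 0.107 without FAN1KO saline replicate 3, 0.138 without FAN1KO cisplatin replicate 1 and 0.131 without FAN1KO cisplatin replicate 2, each a limma value above the threshold of 0.05. In the 8 libraries with low Y-linked genes Per1 was the 1 member called (1.70, adjusted p = 0.00651 by limma). Calls over all genes rose there as well, from 5229 higher and 733 lower to 6647 higher and 1256 lower. That subset keeps 2 mice a group and was chosen after seeing the data. When libraries were rescaled by the median ratio of their genes to the geometric mean over 12 libraries, the median of all genes in this comparison moved from 0.37 to −0.030. On that scale Per1 was at 1.28 (adjusted p = 0.0804), while Clock (−0.59, SE 0.14, adjusted p = 0.0119) and Per2 (−1.01, SE 0.27, adjusted p = 0.0193) were called lower. The members' median went from 0.077 to −0.35, and Arntl, Cry1 and Nr1d1 changed sign, none of them called on either scale. Calls over all genes went from 5229 higher and 733 lower to 2157 higher and 2101 lower.

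Per1 was read beside other genes that glucocorticoid hormone induces. Between saline and cisplatin in FAN1KO kidneys Zbtb16 rose from 2.59, 2.42 and 2.74 to 10.3, 18.3 and 9.31 TPM (log2 difference 1.87, SE 0.44, adjusted p = 0.00826 by limma). Fkbp5 was at 94.2, 37.2 and 31.6 TPM and then 85.4, 130.3 and 95.7 (1.07, SE 0.41, adjusted p = 0.0607). Tsc22d3 (0.58, adjusted p = 0.168), which is also 1 of the further clock genes below, and Sgk1 (0.46, adjusted p = 0.579) were not called. The Sgk1 value was −0.14 without FAN1KO saline replicate 1, and Fkbp5 was called without that library (1.55, adjusted p = 0.00984). Of these 4 genes 1 was called, a share no higher than the 39.8% of all genes. In wild-type kidneys none of the 4 was called for cisplatin by limma (adjusted p = 1.0 for each), with Zbtb16 at 1.00 (unadjusted p = 0.0457), Fkbp5 at 0.84 (unadjusted p = 0.0682), Sgk1 at 0.47 and Tsc22d3 at 0.46.

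In wild-type kidneys cisplatin gave 0 called members and 0 at an unadjusted p under 0.05 by limma, where 0.0601% of all genes were called. No member was clear of overlap, against 6.28% of genes tested. The widest difference was that of Dbp, −1.26 (SE 0.64, adjusted p = 1.0), with values of 9.42 to 69.4 TPM under cisplatin and 26.0 to 73.7 under saline. Npas2 followed at 0.56 (SE 0.38, adjusted p = 1.0). Without wild-type cisplatin replicate 3 the Dbp difference was −2.11 (SE 0.44, adjusted p = 0.440), and 0 of the genes tested were called there by limma. Median log2 differences were 0.093 for the members and 0.084 for all genes.

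The response to cisplatin was not called as different between the genotypes for any member (0 of 10, and 0 at an unadjusted p under 0.05; 6.24% of all genes were called by limma). The interaction was 1.40 for Per1 (SE 0.86, adjusted p = 0.340) and −0.74 for Per2 (SE 0.46, adjusted p = 0.343), and the median was 0.075 over the members and 0.28 over all genes. Over the members the SE of the interaction ran from 0.21 (Clock) to 0.91 (Dbp). Calls over all genes were 782 higher and 153 lower, and 332 higher and 156 lower with median-ratio scaling.

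**Figure D4:**
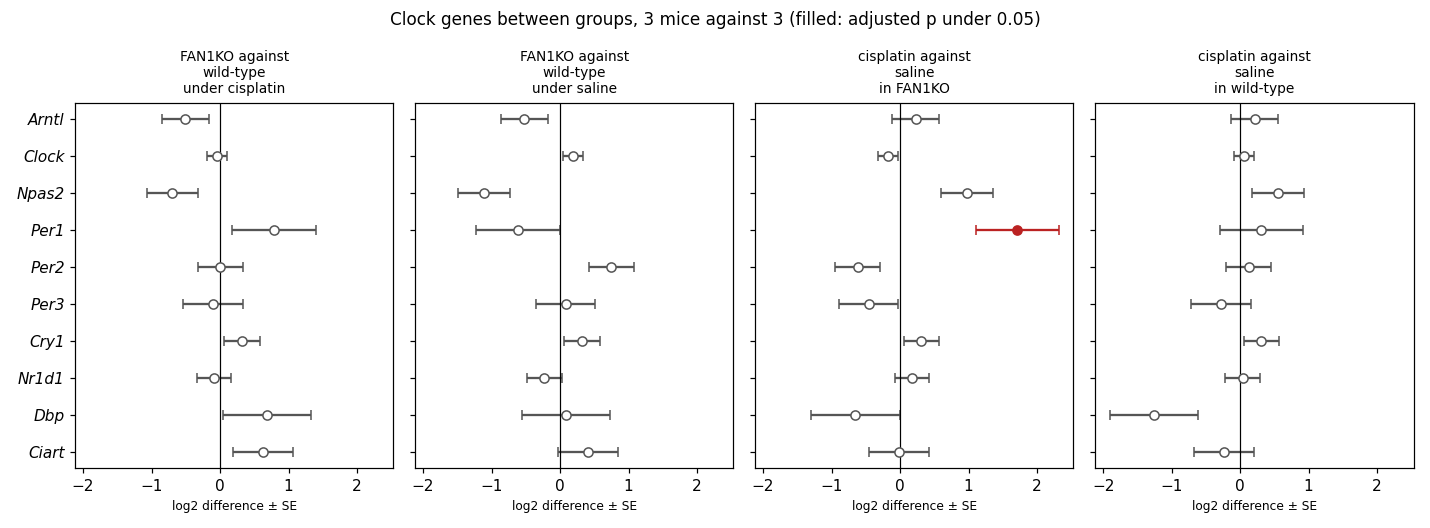
Each panel plots the log2 difference of log2(TPM + 1) between 2 groups of 3 mice for the 10 clock genes, with its SE as a bar. The filled point, Per1 in FAN1KO kidneys under cisplatin against saline at 1.71, is the 1 called difference.

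Of 19 further clock genes listed, 18 passed the filter on low values, and Rorb, at 0.0874 to 0.351 TPM, did not. Under cisplatin 2 of the 18 were called higher in FAN1KO than in wild-type kidneys: Csnk1d, a casein kinase that marks PER proteins (0.49, SE 0.12, adjusted p = 0.0183), and Tspan4, a membrane protein whose RNA cycles in many mouse tissues (1.04, SE 0.15, adjusted p = 0.00146). That share (2 of 18) was below the 23.9% of all genes. In FAN1KO kidneys 4 were called higher under cisplatin than under saline and 1 lower, 5 of 18 where 39.8% of all genes were called. Those higher were Tspan4 (1.08, adjusted p = 0.000575), Csnk1d (0.69, adjusted p = 0.00193), Csnk1e, its sister kinase (1.55, adjusted p = 0.0135), and Bhlhe41, a repressor at E-boxes (1.33, adjusted p = 0.0474). Hlf, a relative of Dbp, fell from 35.7, 41.6 and 43.8 to 15.6, 19.1 and 23.1 TPM (−1.04, SE 0.29, adjusted p = 0.0181). None of the 18 was called between genotypes under saline (1 at an unadjusted p under 0.05) or for cisplatin in wild-type kidneys (0).

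Tspan4 was the 1 gene of the 18 that passed the test of the interaction (1.13, SE 0.21, adjusted p = 0.0167), where 6.24% of all genes did. It was at 70.5 to 97.5 TPM in FAN1KO cisplatin kidneys and at 34.1 to 46.2 TPM in all 9 others. The 18 had a median log2 difference of 0.28 between genotypes under cisplatin and of 0.33 for cisplatin in FAN1KO kidneys, where all genes had 0.24 and 0.37. Nr1d2, Tef, Cry2 and Nfil3 were called in none of these comparisons, and the lowest adjusted p among them was that of Nfil3 in FAN1KO kidneys, 0.0677 by limma, and 0.0256 without FAN1KO saline replicate 2. With median-ratio scaling limma called Hlf lower in FAN1KO than in wild-type kidneys under cisplatin (−0.94, SE 0.28, adjusted p = 0.044). Unscaled, that difference was −0.65 (adjusted p = 0.134). On the rescaled values Csnk1d and Bhlhe41 were no longer called in FAN1KO kidneys (adjusted p = 0.0856 and 0.0999), nor was Csnk1d between genotypes under cisplatin (adjusted p = 0.210). Leaving out a single library also ended calls by limma. That held for Csnk1d between genotypes without wild-type cisplatin 1 or FAN1KO cisplatin 1 (adjusted p = 0.0686 and 0.0801). For cisplatin in FAN1KO kidneys it held for Csnk1e without FAN1KO cisplatin 1 or FAN1KO saline 1 (0.0603 and 0.0557) and for Hlf without FAN1KO cisplatin 1 or FAN1KO saline 3 (0.0761 and 0.0531). Bhlhe41 was lost without any of the 6 libraries but FAN1KO cisplatin 3 (0.0521 to 0.171).

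Genes that share ground with a neighbour could not be separated where the counting did not use strand, which the sources used here do not state. Dbp overlaps Sphk2, Nr1d1 overlaps Thra, Per3 overlaps Uts2 and Ciart overlaps C920021L13Rik, and Arntl, Clock, Npas2 and Per2 overlap predicted genes or pseudogenes. Per1 and Cry1 overlap none in the GRCm38.p6 annotation.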

How the data were processed

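RNA was sequenced from 12 whole kidneys, and the authors deposited TPM for 27179 genes by NCBI Gene number. The labels name the mm10 build and limma; aligner, counter and strand setting are not given in the sources used here. Each library summed to 1000000 TPM. All 12 columns were used, grouped by the labels. RefSeq symbols (GRCm38.p6) named all but 1904 genes.

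Genes that reached 1 TPM in 3 or more libraries were tested as log2(TPM + 1) with limma 3.58.1 (R 4.3.3): 4 group means, empirical Bayes with trend, 2-sided, Benjamini-Hochberg over 14972 genes, threshold 0.05. A fold change on this scale understates the change of low genes. Single genes had the exact permutation test, 3 against 3. Reads were recovered from the TPM steps for 22532 of 22557 genes above 0 (99.871% of values above 0 within 0.02 of a whole read; the other 25 were at 698.6 TPM or more, so totals leave out the most abundant genes); they served for depth and for 1 alternative, limma's voom. The p-values measure the spread between these mice, whose litters and cages are not stated. Named were all members (statistics where called or among the 2 largest differences of a comparison), the further clock genes called plus Cry2, Nr1d2, Tef and Nfil3, the genes most like Arntl and Dbp, and 4 glucocorticoid-responsive genes. Arntl under saline, and members called under 1 alternative, were named after their values were seen. The members and lists were chosen with earlier results of these data known. The steps were tested on simulated data. For the fit, the simulated spread was capped below that of Dbp, Per1, Ciart, Per3, Npas2, Arntl and Per2. That simulation therefore does not cover genes as variable as these members. Alternatives were a pseudocount of 0.1, no filter, 6 libraries, median-ratio scaling, a Y-linked covariate, no trend, the replicate number as a block, and each library left out. The 8 libraries with low Y-linked genes and voom were chosen after seeing the data. Python 3.11.15, numpy 2.4.6, pandas 2.3.3, scipy 1.17.1 and matplotlib 3.10.9 were used.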

Additional observations from a re-analysis of the deposited data

Results flagged for a closer look

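Tspan4, a gene whose RNA cycles in many mouse tissues, was called for a different response to cisplatin in the 2 genotypes, by a test of that difference itself. It was 1 of 18 further clock genes tested, and 6.24% of all genes were called in the same test. The interaction was 1.13 on the log2(TPM + 1) scale (SE 0.21, adjusted p = 0.0167 by limma), where the median of all genes was 0.28. With median-ratio scaling it was 0.77 and no longer called (adjusted p = 0.0669). In the same libraries the summed TPM of 3 injured tubule markers was 711 to 1071 in FAN1KO cisplatin kidneys and at most 110 in the others. Their part in the result was not tested.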

How the results depend on the processing

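Of the 33 log2 differences of single genes recomputed under each alternative, 2 changed sign, neither of them called. Sgk1 for cisplatin in FAN1KO kidneys (0.46) ranged from −0.14 (without FAN1KO saline replicate 1) to 0.95 with each library left out and was at −0.082 in the 8 libraries with low Y-linked genes. Per1 for cisplatin in wild-type kidneys (0.31) ranged from −0.14 (without wild-type cisplatin replicate 3) to 0.96, and was at −0.10 without wild-type saline replicate 3. Median-ratio scaling turned the sign of other members' differences, none of them called by limma in the unscaled values (1 between genotypes under cisplatin, 3 for cisplatin in FAN1KO and 2 in wild-type kidneys, and 3 for the interaction). Of the 10 members, the count called between genotypes under cisplatin (0) was 1 (Per1) with the Y-linked covariate and 0 to 3 with each compared library left out. For cisplatin in FAN1KO kidneys the count (1) was 2 with a pseudocount of 0.1, with only the 6 libraries, or with the Y-linked covariate (Npas2 and Per1 each time), 2 with median-ratio scaling (Clock and Per2), 0 without the filter, 0 with voom, and 0 to 1 with each compared library left out. With the replicate block it was 0 (Per1 adjusted p = 0.0537). For the interaction the count (0) was 1 (Per1) with the Y-linked covariate. The count stayed at 0 under saline and for cisplatin in wild-type kidneys in all 15 alternatives of each. That covariate also raised calls over all 14972 genes. For the interaction they went from 782 higher and 153 lower to 4088 and 646. Between genotypes under cisplatin they were 6035 higher and 1288 lower with it, and for cisplatin in FAN1KO kidneys 7919 and 1222.

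Among the 18 further clock genes, the count between genotypes under cisplatin (2) was 5 with the Y-linked covariate, 6 in the 8 libraries with low Y-linked genes, and 1 to 2 with each compared library left out. Under saline (0) it was 1 (Arntl2) with that covariate, 1 in the 8 libraries and 0 to 1 with each left out. For cisplatin in FAN1KO kidneys (5) it was 3 with median-ratio scaling, 9 with the covariate and 2 to 5 with each left out. For the interaction (1) it was 0 with median-ratio scaling, 4 with the covariate and 4 in the 8 libraries. Calls over all 14972 genes moved as well, as given above for the covariate. In the 8 libraries they were 4328 higher and 1162 lower between genotypes under cisplatin, and 2004 and 434 for the interaction. Under saline they were 117 higher and 178 lower there, and 173 and 248 with the covariate, against 51 and 64 as first fitted. The counts of clock genes are to be read beside these totals. The cause of these changes was not tested.

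Libraries with the same replicate number did not deviate together (mean r −0.24 to −0.14 over the 4 comparisons, against 0.081 to 0.14 for other numbers). In each comparison 0 or 1 of 3 libraries was most like its own number. The library with high Y-linked genes was replicate 1 in 1 group and replicate 3 in the other each time. These values therefore cannot decide whether the number pairs the mice. With 3 mice a group, counts of calls rest on single libraries. The 72 reads of Ciart in 1 library limit that value more than the 3293 or more of Nr1d1.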
